A study of Mus musculus with 22 samples.

Results

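The genes described here are 60 genes of the G2/M phase and mitosis, picked by symbol from textbook roles, out of 24982 gene lines in each file. They were listed with earlier results of these data known. All 60 had a line in each of the 22 files, and all 60 passed the filter on low counts that left 12387 genes to test. By role they comprised 10 entry kinases, phosphatases and cyclins, 5 spindle checkpoint genes, 5 genes of anaphase and mitotic exit, 9 kinetochore and centromere genes and 4 genes of the chromosomal passenger complex. The remainder were 12 spindle and motor genes, 7 genes of the central spindle and cytokinesis, and 8 genes of chromosome structure and proliferation. Bulk RNA-seq had been made from eosinophils sorted at 4 maturation stages, I (earliest) to IV, from the bone marrow of C57BL6 wild-type mice. All mice, controls included, had received 400 ng of the cytokine IL-33 intraperitoneally each day for 7 days, which raises eosinophil numbers, so no group shows marrow without IL-33. They then received 3 daily injections of 400 µg of an antibody against IL-5, the main growth and survival factor of eosinophils, or of the isotype control, starting with the last IL-33 injection. Each antibody has 3 libraries at stages I, III and IV and 2 at stage II, so the 8 groups are stages I, II, III and IV under isotype and the same under anti-IL5. The mice's age is not given in the sources used here, and neither is whether libraries with the same number came from the same animal, so the p-values reflect only how these samples spread. Marrow was depleted of cells carrying Ly6G, CD90.2, NK1.1 or CD45R and then sorted to a purity of at least 95% with antibodies to Pir-A/B, CD200R3, CD117, CD55, CD29, Siglec-F and F4/80.

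A cell enters mitosis when cyclin B bound to CDK1 escapes inhibitory phosphorylation, with the help of CDC25 phosphatases, PLK1 and the Aurora kinases. Chromosomes are condensed, attached to the spindle through kinetochores and held until the spindle checkpoint is satisfied. The anaphase-promoting complex with its activator CDC20 then marks securin and cyclin B for destruction, and the central spindle sets the place where the cell divides. Transcripts of these genes accumulate in G2 in cycling cells, through NF-Y at CCAAT boxes and through the MuvB complex with B-MYB and FOXM1 at cell cycle homology regions, and fall when cells leave the cycle. In the marrow, granulocyte precursors divide and the most mature granulocytes do not.

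Because the genes moved together across stages, the promoter windows in the RefSeq table (build GRCm38.p6) were searched for the letters of both elements: CCAAT, and TTTGAA or TTCGAA for the cell cycle homology region, each on either strand, in the 250 bases before the start. Where matches of the 2 motifs share bases, each was counted. Of the 60 genes, 50 matched the table by symbol, with 53 windows, and the other 10 were Ccna2, Cdc25c, Spc24, Aurkb, Incenp, Tpx2, Dlgap5, Kif20a, Smc4 and Cdca2. CCAAT was found in 75.5% of the 53 windows, against 33.8% of all 32851 windows in the table, and 2 or more copies in 50.9% against 10.1%. The cell cycle homology letters were found in 43.4% against 17.1%, both motifs in 39.6% against 6.02%, and neither in 20.8% against 55%. A match describes letters in a window and is not a bound site. The 150 bases before the start, 5′ to 3′ on the gene's strand, are shown for 6 of the genes, chosen to cover the range from several matches to 0. Capitals mark the matches of either motif, read forward or as the reverse complement.
Top2a, chr11:99024190-99024339, minus strand: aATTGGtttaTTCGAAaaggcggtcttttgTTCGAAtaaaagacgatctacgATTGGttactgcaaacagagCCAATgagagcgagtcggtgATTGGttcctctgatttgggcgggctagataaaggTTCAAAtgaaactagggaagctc
Ccnb2, chr9:70421555-70421704, minus strand: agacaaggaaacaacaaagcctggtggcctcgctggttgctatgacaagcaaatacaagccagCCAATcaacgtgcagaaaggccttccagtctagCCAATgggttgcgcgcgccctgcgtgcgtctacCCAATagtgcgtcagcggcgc
Ect2, chr3:27153879-27154028, minus strand: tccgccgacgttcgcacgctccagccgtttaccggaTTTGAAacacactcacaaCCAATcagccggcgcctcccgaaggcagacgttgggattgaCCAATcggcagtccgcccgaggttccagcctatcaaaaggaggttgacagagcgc
Plk1, chr7:122159285-122159434, plus strand: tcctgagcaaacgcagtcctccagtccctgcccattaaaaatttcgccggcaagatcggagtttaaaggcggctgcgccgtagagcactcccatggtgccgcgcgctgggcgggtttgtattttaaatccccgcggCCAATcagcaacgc
Racgap1, chr15:99651657-99651806, minus strand: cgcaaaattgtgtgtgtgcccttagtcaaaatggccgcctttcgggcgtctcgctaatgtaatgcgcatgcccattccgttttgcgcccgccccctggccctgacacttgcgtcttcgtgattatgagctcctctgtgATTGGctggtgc
Ndc80, chr17:71526858-71527007, minus strand: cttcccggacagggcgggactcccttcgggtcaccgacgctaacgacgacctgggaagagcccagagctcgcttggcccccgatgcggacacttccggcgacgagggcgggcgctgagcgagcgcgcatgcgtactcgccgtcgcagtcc
Top2a had 6 CCAAT and 4 homology matches in the whole 250 bases, of which 4 and 3 lie in the stretch shown. Ccnb2 had 3 CCAAT and 1 homology match, the latter further upstream than the stretch shown. Plk1 and Racgap1 had 1 CCAAT each, and Ndc80 had 0 of either in its 250 bases.

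Libraries held 7161264 to 14781250 counts assigned to genes, with 12359 to 13829 genes seen, so that 3 counts, used here as the floor of detection, equalled 0.203 to 0.419 CPM, counts scaled to a library of 1000000. The CPM given for genes are also corrected for library composition, while the floor is on uncorrected totals. They are relative levels within the sample's RNA and not plain shares of a library's counts. Fewer cells in G2 or mitosis and less RNA per cell therefore cannot be told apart. SMART-Seq v4 does not mark strand and the counting setting is not given in the sources used here. For 10 of the 60 genes at least 5% of the exonic bases overlap a gene on the other strand, the largest shares being Kif20a (29.3%, Cdc23), Ube2c (22.8%, Tnnc2), Kif4 (15.1%, Pdzd11) and Ncapg (13.4%, Lcorl), and reads of these partners cannot be separated. Beside the sort label, 9 eosinophil genes were looked at, among them the granule genes Epx and Prg2 and the sort marker Siglecf. All 9 had counts in every group, and their sum ranged from 9163 to 67600 CPM over the libraries. Such counts do not measure the purity of the sort, and summed markers of other cells are given further below.

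Summed over the 60 genes, the level was highest at stage II and lowest at stage IV under both antibodies. Isotype libraries held 6302, 8916 and 8334 CPM at stage I, 10679 and 13795 at stage II, 4020, 3828 and 5412 at stage III, and 1048, 847 and 887 at stage IV. Anti-IL5 libraries held 12400, 13056 and 11101 CPM at stage I, 13783 and 19922 at stage II, 3036, 3577 and 2375 at stage III, and 1023, 971 and 1012 at stage IV. At stage I all anti-IL5 libraries lay above all isotype libraries, with a ratio of means of 1.55, and at stage III all lay below, with a ratio of 0.678. The antibody groups overlapped at stages II (ratio 1.38, where anti-IL5 replicate 1 lay just below isotype replicate 2) and IV (ratio 1.08). The mean at stage III was 2.77-fold lower than at stage II under isotype and 5.62-fold under anti-IL5, and at stage IV 4.77-fold and 2.99-fold lower than at stage III. Hmgb2, the most read of the genes, did not carry these ratios: without it they were 1.56, 1.41, 0.649 and 1.07 at stages I to IV. The sum was not tested, since it runs over genes chosen with earlier results known.

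**Figure D1:**
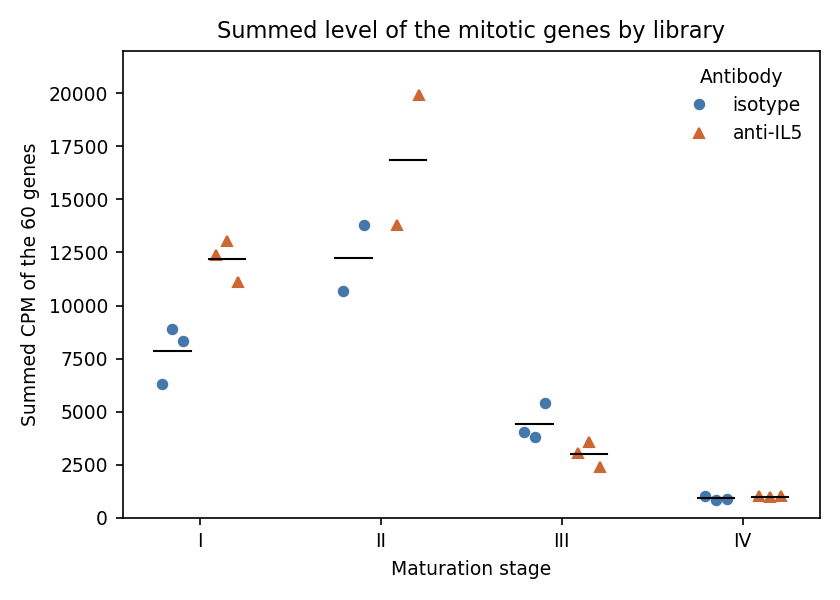
Summed CPM of the 60 mitotic genes (vertical axis) by maturation stage (horizontal axis), with a point for each of the 22 libraries (circles isotype, triangles anti-IL5) and a bar at each group mean. At stage I the anti-IL5 libraries (11101 to 13056 CPM) sit above the isotype libraries (6302 to 8916), and at stage III (2375 to 3577) they sit below (3828 to 5412).

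Across maturation the genes were tested in edgeR's quasi-likelihood fit, with calls made where p, adjusted by Benjamini-Hochberg over all 12387 genes, was under 0.05. From stage I to II under isotype 8 of 60 rose and 0 fell, against 7.39% of all genes called higher, with a median log2 fold change of 0.63 over the 60 (0.3 without isotype II replicate 2) and 0.02 over all genes. The 8 were Spc25 (log2 1.11 ± 0.25, adjusted p = 0.00736), Ccnf (1.06), Cdca8 (0.85), Ndc80 (0.83), Hmgb2 (0.77), Racgap1 (0.75), Spc24 (0.65) and Bub3 (0.63). Under anti-IL5 only Bub3 passed this step (log2 0.58 ± 0.14, adjusted p = 0.00759), against 7.27% of all genes called higher, with a median of 0.45 (0.084 without anti-IL5 II replicate 2). The stage II groups hold 2 libraries each, which lay far apart for several genes: Top2a, the topoisomerase that untangles sister chromatids, read 248 and 606 CPM under isotype and 263 and 726 under anti-IL5. Leaving out isotype II replicate 1 took the isotype count to 1.

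From stage II to III 55 of 60 fell under isotype (18.1% of all genes called lower, member median -1.61) and 59 of 60 under anti-IL5 (19.7%, median -2.89). Without isotype II replicate 2, the library with the higher mitotic sum, the isotype count was 34. The largest falls under isotype were Cenph (-2.31), Kif20b (-2.19), Smc2 (-2.06), Cdc25c (-2.05), Cenpm (-2.04) and Spc24 (-2.0), as log2 fold changes. Under anti-IL5 they were Aurkb, Smc2 and Spc24 (-3.37 each), Cenpm and Bub1 (-3.33 each) and Kif20b (-3.31). From stage III to IV 57 of 60 fell and 1 rose under isotype (18.8% of all genes lower and 14.8% higher, median -4.52), and 56 fell and 1 rose under anti-IL5 (13.4% and 10.4%, median -3.37). Comparing stage IV with stage I directly, 57 fell and 1 rose under isotype (33.9% of all genes lower and 32.3% higher, median -5.62), and 59 fell and 1 rose under anti-IL5 (32.8% and 30.7%, median -5.93). The gene that rose in each of these 4 comparisons was Pttg1. Summed markers of other cells and of eosinophils also differed between stages I and IV. Under isotype their mean CPM went, for azurophil neutrophil progenitors from 4326 to 70.9, for erythroid cells from 152 to 16.3, for basophils and mast cells from 1707 to 295.3, for eosinophils from 47896 to 11248 and for mature neutrophils from 2493 to 5288. Under anti-IL5 these sums went from 2921 to 159, 88.0 to 15.5, 1371 to 231, 48688 to 9661 and 4304 to 8023 CPM. Their part in the mitotic falls was not tested. The steps of the 2 antibodies share no library, but adjacent steps share the stage between them.

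Under isotype the mean was highest at stage II for 59 of 60 genes, and under anti-IL5 for 57 of 60. Relative to stage I the median gene stood at 49% of its level at stage III under isotype and at 18.3% under anti-IL5, and at stage IV at 2.06% and 1.6%. At stage IV 43 genes stood under 5% of their stage I mean under isotype and 48 under anti-IL5, 9 and 7 stood from 5% to under 20%, and 8 and 5 at 20% or more. Under isotype 2 of the 60 genes had at most 3 counts over the 3 stage IV libraries. Ttk, the MPS1 kinase of the checkpoint, had 0 counts there against 919 at stage I, at least 324-fold lower when set against 3 counts over the group. Cdc25c had 2 against 757, so its level was lower by a factor of 400 (exact 95% interval for counting error from 110 to 3310).

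**Figure D2:**
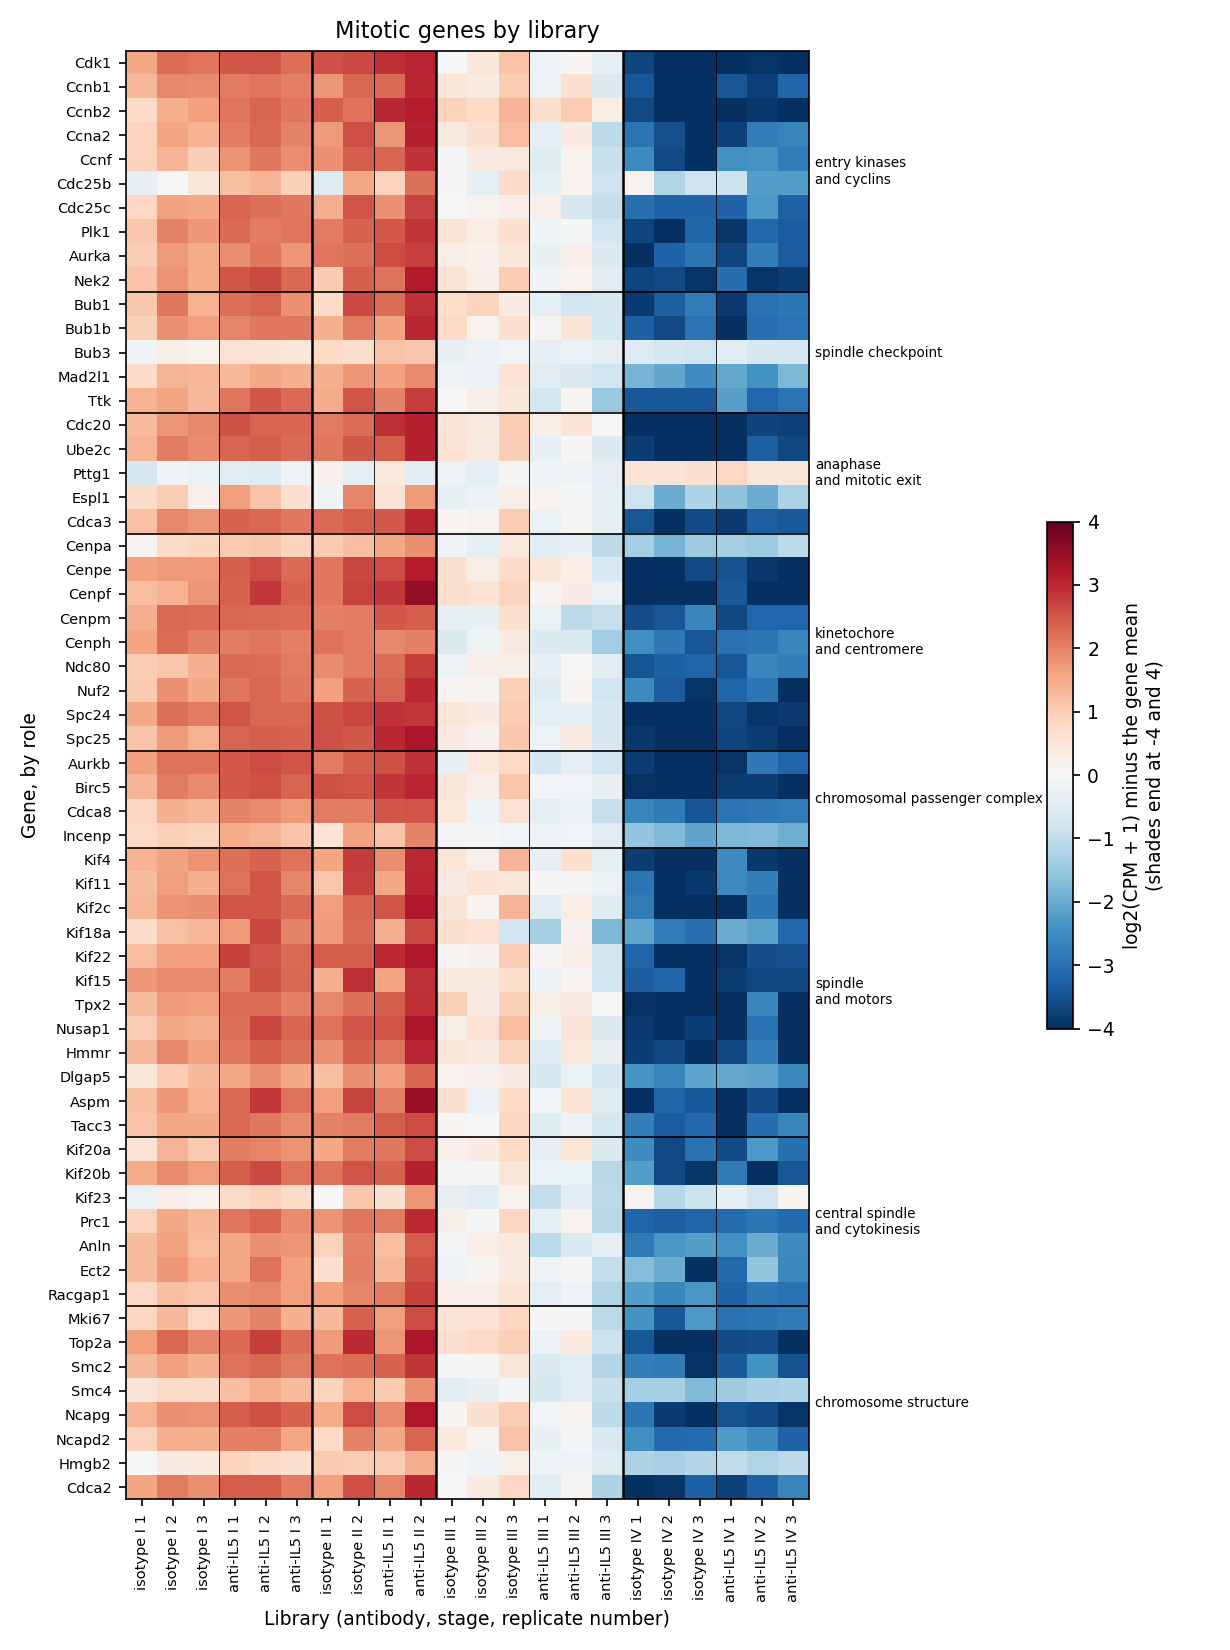
Level of each of the 60 genes (rows, by role) in each of the 22 libraries (columns, by stage, antibody and replicate number), as log2(CPM + 1) minus the gene's mean over the libraries (red above, blue below, shades ending at -4 and 4). Nearly every row turns from red at stages I and II to dark blue at stage IV, while Pttg1 is reddest at stage IV and Bub3, Kif23 and Hmgb2 stay paler.

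Between antibodies, 6 of the 60 genes were higher under anti-IL5 at stage I and 0 lower (2.61% of all genes called higher and 1.82% lower). The median log2 difference was 0.65 over the 60 and 0.02 over all genes, 59 of 60 differences were positive, and 30 were higher at an unadjusted p under 0.05 (10.1% of all genes). For 49 of the 60 every anti-IL5 library lay above every isotype library, as it did for 14.5% of all genes. At stage II 0 of 60 passed edgeR's test (6 higher and 0 lower with raw p under 0.05, against 6.25% and 7.3% of all genes, 1 by DESeq2 and 1 by limma-voom), against 1.75% of all genes. The median there was 0.48, but 0.135 without anti-IL5 II replicate 2 and 0.821 without isotype II replicate 2. At stage III the direction was the opposite: 6 were lower and 0 higher (5.05% of all genes lower and 1.32% higher), with a median of -0.73 against -0.01 over all genes. There 59 of 60 differences were negative, 33 were lower at an unadjusted p under 0.05 (14% of all genes), and for 26 the libraries did not overlap (15.1% of all genes). At stage IV 0 passed edgeR's test (7 higher and 2 lower with raw p under 0.05, against 3.83% and 5.36% of all genes, 2 by DESeq2, 0 by limma-voom), against 1.05% of all genes. The median was 0.21, and 0.092 without anti-IL5 IV replicate 2 or 0.545 without isotype IV replicate 1.

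These counts changed with the libraries and the fit. At stage I the count was 1 or 2 when any 1 of its 6 libraries was left out, and Ndc80 passed in each of these fits. When the stage I libraries were fitted alone, 41 of 60 were higher (4.73% of the 11237 genes tested there), and limma-voom called 23 higher (2.74% of all genes). At stage III the count was 1 without isotype III replicate 3 or without anti-IL5 III replicate 3, the gene left being Spc24, and 11 without isotype III replicate 2. Isotype III replicate 3 held the highest mitotic sum of its group, and anti-IL5 III replicate 3 the lowest of its own.

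**Figure D3:**
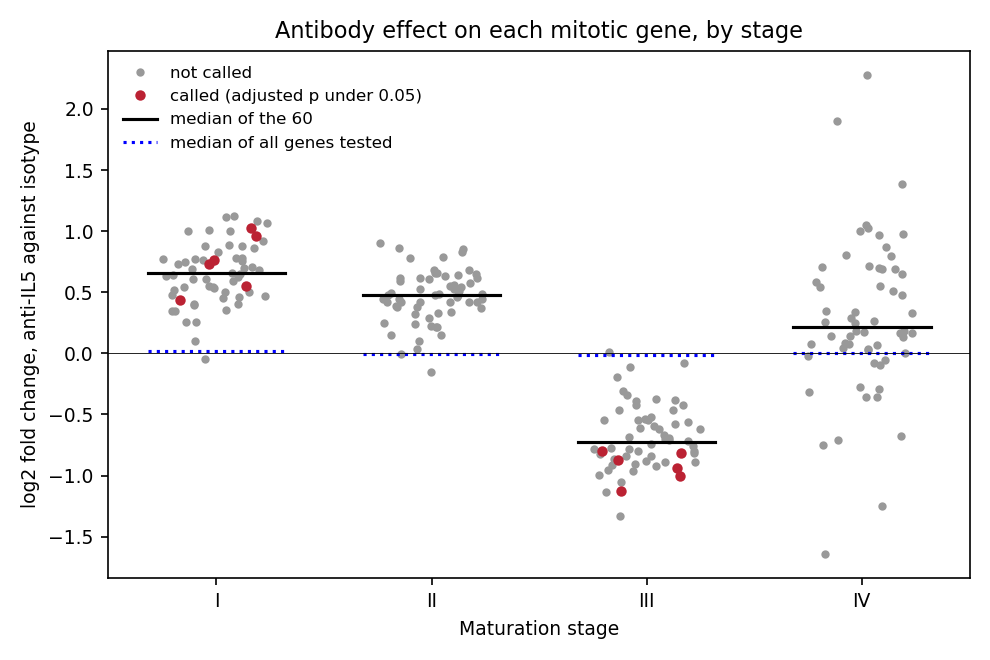
Log2 fold change of anti-IL5 against isotype for each mitotic gene (vertical axis) at each maturation stage (horizontal axis, points spread sideways at random); red points were called, black bars are the medians of the 60 genes and blue dotted lines the medians of all genes tested. Most points lie above 0 at stages I and II and below 0 at stage III; Ttk at stage IV is left out because isotype libraries had 0 counts.

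Markers of other marrow cells were set beside these comparisons, as summed CPM per library. The shares of all genes called higher and lower were 2.61% and 1.82% at stage I, and 1.32% and 5.05% at stage III. At stage I the 5 markers of azurophil neutrophil progenitors (such as Mpo and Elane) summed to 3699 to 5434 CPM under isotype and 1009 to 5851 under anti-IL5, with 0 of 5 called. The 11 erythroid markers summed to 137 to 173 CPM and 82.1 to 92.7, with 0 of 7 tested called, and 4 globin genes (Hba-a1, Hba-a2, Hbb-bs and Hbb-bt) were listed at 0 in every library. Mature neutrophil markers, of which 10 were tested, summed to 2186 to 2868 CPM and 2019 to 5447, with Retnlg alone called higher. At stage III the 9 basophil and mast cell markers summed to 598 to 1377 CPM under isotype and 195 to 282 under anti-IL5, with 5 of 9 lower, for example the mast cell carboxypeptidase Cpa3 (log2 -4.18 ± 0.39). Isotype III replicate 3 held the 1377 CPM and anti-IL5 III replicate 3 the 195 CPM, and these are also the 2 libraries without either of which the mitotic count at stage III was 1. Isotype III replicate 3 was also highest of its group for monocyte markers (2926 against 1696 and 1878 CPM) and dendritic cell markers (142 against 46.6 and 51.8). In its own group anti-IL5 III replicate 3 was highest for the monocyte markers (1747 CPM) and lowest for the dendritic cell markers (62.9). At stage III 10 mature neutrophil markers summed to 6687 to 10563 CPM and 10231 to 13307, with S100a9 alone called higher. The T, NK and innate lymphoid markers summed to 1.98 to 13.5 CPM over all libraries. Eosinophil markers themselves differed at stage III, where the 9 summed to 42242 to 49165 CPM under isotype and 26379 to 31599 under anti-IL5, with the granule genes Epx (log2 -1.56 ± 0.33) and Prg3 (-1.21) lower. The part of any of these in the mitotic differences was not tested.

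Among the entry kinases, phosphatases and cyclins, 0 of 10 passed an antibody comparison, although all 10 differences were positive at stage I (median 0.81) and negative at stage III (median -0.61). Cdk1, the kinase that drives mitotic entry, read 125, 204 and 189 CPM at stage I under isotype and 240.3, 245 and 198 under anti-IL5, and these ranges overlap (log2 0.40 ± 0.26, adjusted p = 0.458). At stage III it read 41.5, 59.6 and 95.4 under isotype against 37.1, 45.3 and 32.6 (log2 -0.78 ± 0.27, adjusted p = 0.093). At stage IV it was down to 2.38, 1.44 and 0.562 CPM under isotype, and it fell by 6.85 on the log2 scale from stage I. Its partner Ccnb1, cyclin B1, had antibody differences of 0.35, 0.64, -0.59 and 0.69 at stages I to IV, none called. Plk1, a kinase of mitotic entry and spindle assembly, had 0.52, 0.46, -0.82 and 0.34, with an adjusted p of 0.0528 at stage III. Cdc25b, a phosphatase that activates CDK1, kept more of its level than the rest of this role under isotype, with 14.8, 18.8 and 26.7 CPM at stage I and 20.6, 7.5 and 10 at stage IV (log2 -0.66 ± 0.52, adjusted p = 0.268). Under anti-IL5 it fell from 44.2, 49.3 and 37.4 to 9.9, 3.29 and 3.15 CPM (log2 -3.03 ± 0.56, adjusted p = 9.73e-05). Cdc25c, the related phosphatase, fell under both (-7.00 on the log2 scale under anti-IL5, on 10 counts over the stage IV libraries). Nek2, the kinase that parts the centrosomes, fell by 8.09 under isotype and fell by 8.23 under anti-IL5. These falls rest on only 5 and 8 counts over the stage IV libraries, so their size is uncertain.

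In the spindle checkpoint, Bub3 stood apart. Bub3 (ENSMUSG00000066979.6, chr7:131560222-131571895, plus strand), a WD40 protein that carries BUB1 and BUBR1 to kinetochores, was higher under anti-IL5 at stage I, with 239, 313.7 and 296.4 CPM under isotype and 394, 391 and 364 under anti-IL5 (log2 0.44 ± 0.12, adjusted p = 0.0493). The groups do not overlap, but the call was lost without any 1 of the 6 libraries (adjusted p 0.0762 to 0.165), and with RLE size factors (0.0718), without the filter (0.104) or with stage I fitted alone (0.0555). It kept 59% of its stage I level at stage IV under isotype and 46.2% under anti-IL5, with 187, 163 and 151 CPM against 193, 172 and 166. The checkpoint genes named next fell further: Bub1b (BUBR1) to 2.8% and 1.82% of stage I, Bub1 to 1.18% and 0.926%, and Mad2l1 (MAD2), which binds CDC20, to 9.6% and 8.53%. At stage III the antibody differences of Bub1, Mad2l1 and Ttk were -1.33, -0.72 and -0.88, with adjusted p of 0.0937, 0.0583 and 0.221.

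The genes of anaphase and mitotic exit split. Cdc20 (ENSMUSG00000006398.15, chr4:118432901-118437352, minus strand), the activator of the anaphase-promoting complex, was higher under anti-IL5 at stage I, 179, 253 and 281 CPM under isotype and 437, 371 and 378 under anti-IL5 (log2 0.73 ± 0.21, adjusted p = 0.0456). The call was lost without any 1 of the 6 libraries (adjusted p 0.051 to 0.168), and with RLE size factors (0.0537) or library totals alone (0.0596). At stage II its libraries also did not overlap, 317 and 354 against 561 and 628 CPM, without passing (log2 0.83 ± 0.25, adjusted p = 0.112). At stage III, with -0.37, and stage IV, with 0.65, it was not called. Ube2c (ENSMUSG00000001403.13, chr2:164769898-164778822, plus strand), the ubiquitin-conjugating enzyme of that complex, was lower under anti-IL5 at stage III, 63.8, 55.3 and 85 against 33.9, 43.8 and 28.8 CPM (log2 -0.94 ± 0.25, adjusted p = 0.0243). The groups do not overlap, and the call was lost without isotype III replicate 3 (adjusted p 0.138), anti-IL5 III replicate 3 (0.134) or anti-IL5 III replicate 1 (0.0688). It held under the 8 other ways of fitting. Cdca3, which promotes mitotic entry through WEE1 turnover, fell by 6.12 from stage I to IV under isotype.

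Pttg1 (ENSMUSG00000020415.16, chr11:43420250-43426251, minus strand), which encodes securin, the inhibitor of separase, went the other way over maturation. It read 34.1, 48.8 and 45.1 CPM at stage I, 60.9 and 42.2 at stage II, 47.1, 42.2 and 56.2 at stage III and 79.3, 77.7 and 87.1 at stage IV under isotype. Under anti-IL5 it read 38.7, 37.8 and 47.1 CPM at stage I, 70.5 and 39.9 at stage II, 48.3, 47.3 and 42.4 at stage III and 96.2, 76.3 and 75.7 at stage IV. The stage IV libraries lie above all others of the same antibody, at 191% and 201% of stage I, and the rise from stage III to IV passed under isotype (log2 0.75 ± 0.20, adjusted p = 0.00647) and anti-IL5 (log2 0.85 ± 0.20, adjusted p = 0.0036). No antibody difference of Pttg1 exceeded 0.10 in either direction on the log2 scale. Espl1, which encodes separase itself, fell to 24.2% of stage I at stage IV under isotype (log2 -2.05 ± 0.44, adjusted p = 0.000385) and to 12.9% under anti-IL5 (log2 -2.95 ± 0.46).

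**Figure D4:**
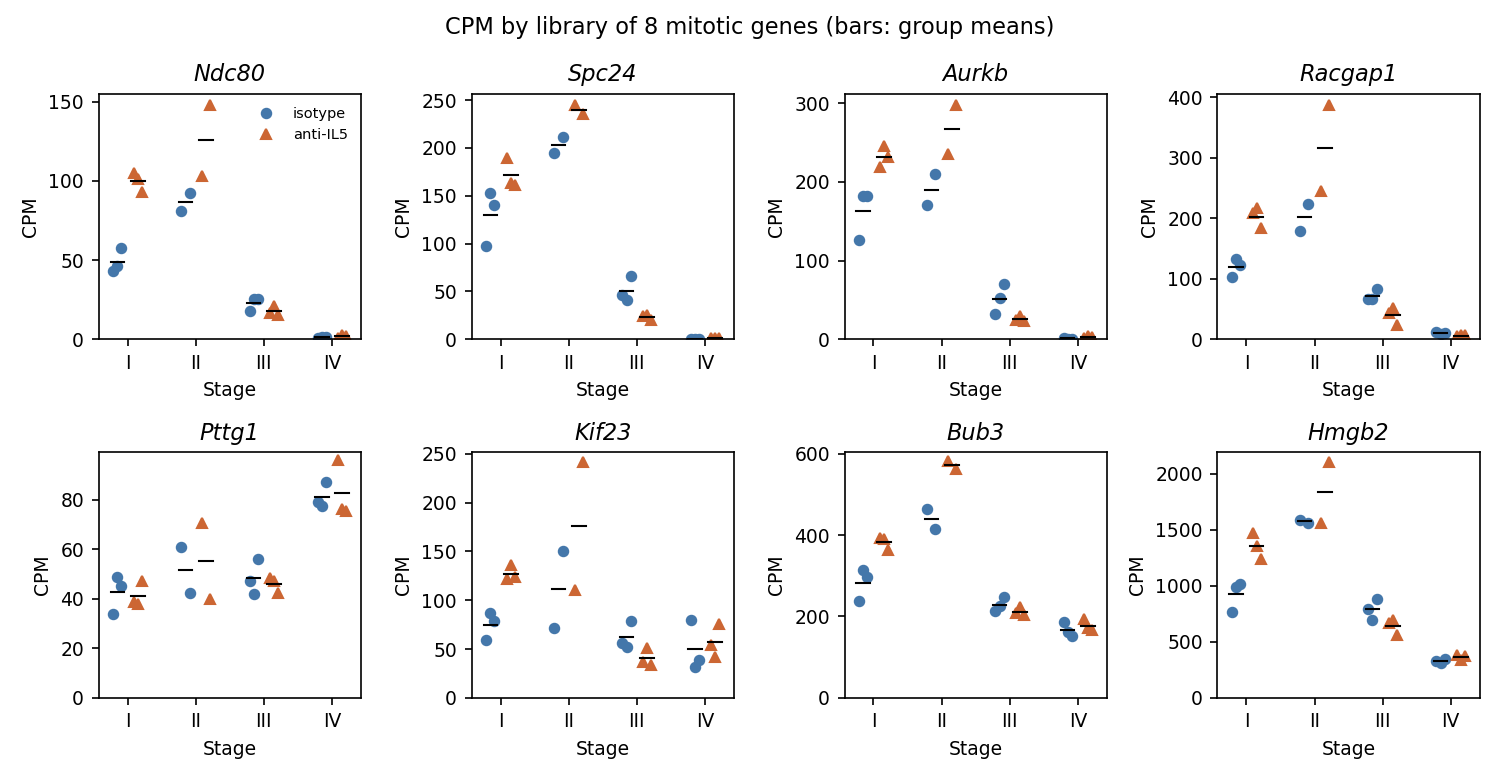
CPM (vertical axes, from 0) of 8 mitotic genes by maturation stage (horizontal axes), with a point per library (circles isotype, triangles anti-IL5) and a bar at each group mean. Ndc80 is higher under anti-IL5 at stage I and Spc24 lower at stage III; Pttg1 is highest at stage IV, and Kif23, Bub3 and Hmgb2 keep part of their level there.

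The kinetochore genes held the antibody calls that were most stable. Ndc80 (ENSMUSG00000024056.10, chr17:71496100-71526857, minus strand) encodes the subunit of the NDC80 complex that grips microtubules. At stage I it read 43.5, 46.1 and 57.7 CPM under isotype and 105, 101 and 92.8 under anti-IL5, groups far apart (log2 1.02 ± 0.21, adjusted p = 0.00572). It passed under all 8 other ways of fitting and in all 6 fits that left out a library (adjusted p 0.0114 to 0.0473). At stage II it read 81.3 and 92.7 under isotype against 103 and 148 CPM (0.53), and at stage III 18.2, 25.2 and 25.3 under isotype against 16.4, 21.2 and 15.2 (-0.38), neither called. Spc25 (ENSMUSG00000005233.16, chr2:69193895-69206194, minus strand), a partner subunit that anchors the complex to the centromere, read 89.2, 134 and 106 under isotype against 207, 220.4 and 213 CPM at stage I (log2 0.96 ± 0.23, adjusted p = 0.021). Its call held without isotype I replicate 2 and was lost without any other library of the stage (adjusted p up to 0.0858), while it held under the 8 other ways of fitting.

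Spc24 (ENSMUSG00000074476.6, chr9:21755442-21760303, minus strand), which pairs with SPC25 in the same complex, had the smallest adjusted p of the 60 at stage III. It read 45.8, 40.8 and 66.4 CPM under isotype and 24.2, 25.4 and 20.3 under anti-IL5, with no overlap (log2 -1.13 ± 0.18, adjusted p = 0.000808). The call held under all 8 other ways of fitting and without each of the 6 libraries (adjusted p 0.000567 to 0.0107). At stage I Spc24 read 97.3, 152 and 140.4 under isotype against 189.6, 163 and 161 CPM, again without overlap, and was not called (log2 0.40 ± 0.18, adjusted p = 0.226). Of the 4 subunits of the complex, Ndc80 and Spc25 were thus called at stage I and Spc24 at stage III, and Nuf2 at neither (0.69 at stage I and -0.84 at stage III). Cenpf, a kinetochore protein that builds up in G2, had 1.07 at stage I (adjusted p = 0.0536), where its libraries did not overlap. Cenpa, the histone variant that marks centromeres, kept 22.3% and 20.2% of its stage I level at stage IV, where the other 8 genes of this role stood at 2.52% or less. Cenph and Cenpm, of the constitutive centromere network, had the smallest antibody differences of this role at stage I, 0.10 and 0.25.

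The chromosomal passenger complex corrects wrong attachments and later acts in cytokinesis. Of its 4 genes, 3 were lower under anti-IL5 at stage III, where 5.05% of all genes were called lower. Aurkb (ENSMUSG00000020897.12, chr11:69045647-69051664, plus strand), its kinase, read 31.7, 52.7 and 70 CPM under isotype and 24.6, 29.7 and 23 under anti-IL5 (log2 -1.0 ± 0.26, adjusted p = 0.0242). Cdca8 (ENSMUSG00000028873.16, chr4:124918465-124939311, minus strand), or borealin, read 131, 87.3 and 148 under isotype against 77.2, 81.8 and 51.1 (log2 -0.80 ± 0.21, adjusted p = 0.027). Birc5 (ENSMUSG00000017716.15, chr11:117849251-117855743, plus strand), or survivin, read 76.2, 66.3 and 121 under isotype against 52.1, 52.2 and 45.4 (log2 -0.81 ± 0.24, adjusted p = 0.049). The libraries of the 2 antibodies did not overlap for any of the 3 (15.1% of all genes were lower without overlap at stage III). The lowest isotype and highest anti-IL5 values of Aurkb and Cdca8 lay close. All 3 calls were lost without isotype III replicate 3 (adjusted p 0.16, 0.147 and 0.283) or without anti-IL5 III replicate 3 (0.116, 0.165 and 0.184), and Aurkb's also without anti-IL5 III replicate 1 (0.0675) and Cdca8's without isotype III replicate 1 (0.0774). Birc5 passed without isotype III replicate 2 and in no other of these 6 fits. With stage III fitted alone none of the 3 passed (0.0606, 0.077 and 0.069), and Birc5 was also lost with RLE size factors (0.0523), without the filter (0.0646) and with the replicate block (0.05). Incenp, the scaffold of the complex, read 90.9, 91.5 and 86.5 under isotype against 81, 85.9 and 68.2 CPM, overlap-free but by little (log2 -0.19 ± 0.22, adjusted p = 0.665). At stage I the 4 differences were 0.51, 0.66, 0.64 and 0.46, with none called (2.61% of all genes called higher). Every anti-IL5 library lay above every isotype library there for all 4, as for 14.5% of all genes.

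Among the 12 spindle and motor genes, every anti-IL5 library lay above every isotype library at stage I for all 12 (14.5% of all genes). Their median was 0.73, and 0 were called (2.61% of all genes called higher). Nusap1, which bundles spindle microtubules, had the smallest adjusted p there (0.0687), with 73.4, 104 and 100.0 CPM under isotype and 167, 236 and 182 under anti-IL5 (log2 1.08 ± 0.33). Kif11, the motor that separates spindle poles, had 0.77, 0.34, -0.52 and 0.58 at stages I to IV. Its stage II libraries were wide apart, 90.5 and 279 CPM under isotype and 122 and 346 under anti-IL5, with the lower value in replicate 1 of both. At stage III the smallest adjusted p of the role was that of Tacc3, which stabilises spindle microtubules (-0.84, adjusted p = 0.0603), followed by Dlgap5 (-0.76, adjusted p = 0.0687). At stage IV all 12 stood below 10% of stage I under both antibodies, Dlgap5 keeping the most (8.17% and 5.74%). Kif4, a chromosome-arm motor, kept the least under isotype (0.416%, on 9 counts over the stage IV libraries). Aspm, a spindle pole protein, kept the least under anti-IL5 (0.157%, on 5 counts). With so few counts, which gene kept the least is uncertain.

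The genes of the central spindle and cytokinesis included both a member called at 2 stages and the motor that kept most of its level. Racgap1 (ENSMUSG00000023015.14, chr15:99620496-99651656, minus strand), the GTPase-activating subunit of centralspindlin, was higher under anti-IL5 at stage I, 103, 133 and 124 CPM against 208, 217 and 184 (log2 0.76 ± 0.21, adjusted p = 0.0459). At stage III it was lower, 67.2, 67.2 and 83 against 43.1, 51.4 and 24.2 (log2 -0.87 ± 0.22, adjusted p = 0.019). It was the only 1 of the 60 called at both stages, and its libraries overlapped at neither. The stage I call was lost without any 1 of the 6 libraries (adjusted p 0.0674 to 0.145), with RLE size factors (0.0522) and with library totals alone (0.0687). The stage III call was lost without isotype III replicate 3 (adjusted p 0.0955) or anti-IL5 III replicate 3 (0.116), or with stage III fitted alone (0.0748). Kif23 (ENSMUSG00000032254.10, chr9:61915905-61946774, minus strand), the motor subunit of centralspindlin, read 58.8, 86.4 and 78.3 CPM at stage I, 56.4, 52.1 and 78.7 at stage III and 79.7, 32 and 39.2 at stage IV under isotype, ranges that overlap (log2 -0.56 ± 0.33 for stage IV against I, adjusted p = 0.141). Under anti-IL5 it read 121, 136 and 124 CPM at stage I, 36.5, 51.5 and 34 at stage III and 54.3, 41.7 and 75.3 at stage IV, and fell from stage I to IV (log2 -1.16 ± 0.34, adjusted p = 0.00514). Its partner Racgap1 stood at 8.52% and 3.04% of stage I at stage IV, against 67.6% and 44.9% for Kif23. Prc1, which cross-links central spindle microtubules, had 0.86 at stage I (adjusted p = 0.0727) and -0.80 at stage III (0.0858). Ect2, the exchange factor that starts the contractile ring, had the weakest antibody evidence of the role at stage III (-0.47, adjusted p = 0.685).

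In the last role, chromosome structure and proliferation, Hmgb2 (ENSMUSG00000054717.7, chr8:57511907-57515999, plus strand), a chromatin protein abundant in cycling cells, was higher under anti-IL5 at stage I. It read 769, 987 and 1019 CPM under isotype and 1473, 1354 and 1240 under anti-IL5 (log2 0.55 ± 0.15, adjusted p = 0.0348), with no overlap. The call held only without anti-IL5 I replicate 3 among the fits that left out a library (adjusted p up to 0.14), and was lost without the filter (0.051). At stage IV Hmgb2 kept 35.6% and 26.8% of its stage I level, with 328, 314.04 and 345 under isotype against 382, 335 and 372 CPM. Mki67, the proliferation antigen Ki-67, read 139, 187 and 135 under isotype against 251, 298.4 and 204 CPM at stage I (log2 0.71 ± 0.30, adjusted p = 0.215). At stage III it read 111, 109 and 139 under isotype against 73.6, 71.4 and 35.2, without overlap and just short of the threshold (log2 -0.99 ± 0.31, adjusted p = 0.0592). Top2a had 0.45 and -0.97 at these stages, and its stage I libraries overlapped. Of the condensin subunits, Smc4 kept 22.4% and 16% of its stage I level at stage IV, while Smc2, its partner, kept 3.54% and 2.34%. At stage I Smc4 had 0.62 (adjusted p = 0.0581) and Smc2 0.73 (0.141).

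**Figure D5:**
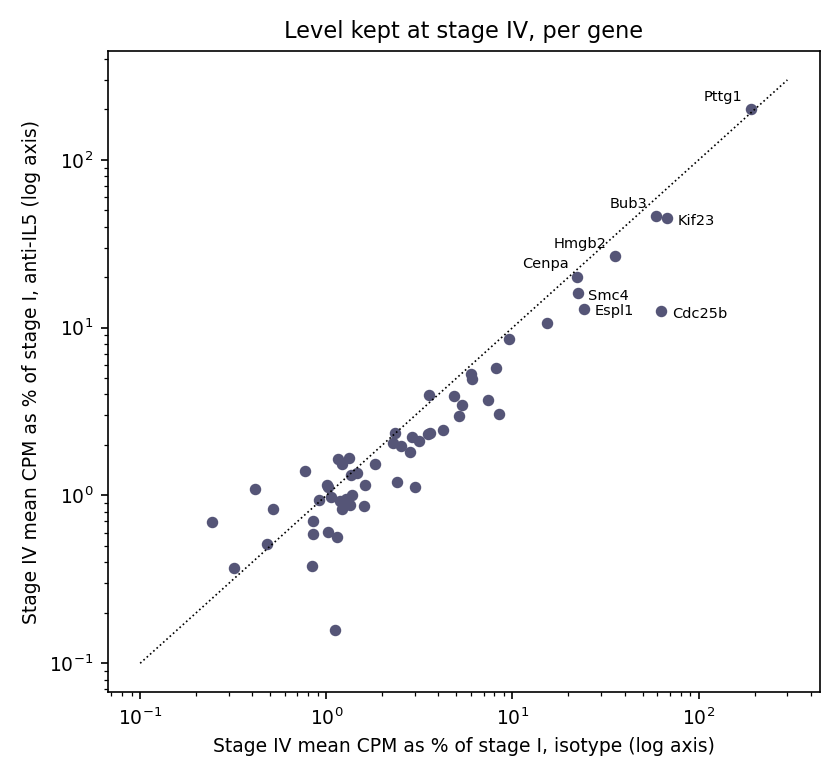
Stage IV mean CPM as a percentage of the stage I mean, per gene, under isotype (horizontal, log axis) and anti-IL5 (vertical, log axis), with the dotted line where both are equal. Genes that kept at least 20% under either antibody are named, Pttg1 lies above 100% on both axes, and Ttk (0 counts at stage IV under isotype) is not drawn.

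Whether the antibody effect itself changed between stages was tested as a difference of differences. From stage I to III the change in effect was negative for all 60 genes, with a median of -1.42 on the log2 scale against -0.06 over all genes, and 54 of 60 were lower at an unadjusted p under 0.05 (7.86% of all genes). After adjustment 5 of 60 were called lower and 0 higher, where 0.363% of all genes were called lower and 0.0323% higher (45 and 4 genes). These were Spc24 (log2 -1.53 ± 0.25, adjusted p = 0.00709), Racgap1 (log2 -1.63 ± 0.31, 0.0202), Spc25 (log2 -1.67 ± 0.33, 0.0275), Cdca8 (log2 -1.46 ± 0.30, 0.0314) and Ndc80 (log2 -1.40 ± 0.30, 0.0347). Spc24 passed without each of the 12 libraries in turn, Racgap1 in 7 of these 12 fits, Spc25 in 5, Ndc80 in 4 and Cdca8 in 3. The count was 1 without isotype I replicate 1, isotype III replicate 3, anti-IL5 I replicate 1 or 2, or anti-IL5 III replicate 3, and 8 without anti-IL5 III replicate 2. Of the other genes followed throughout, the change in effect was -1.10 for Cdc20, -1.51 for Aurkb, -1.45 for Birc5, -1.18 for Cdk1, -1.34 for Plk1, -1.70 for Mki67 and -0.55 for Bub3, none called.

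Between stages I and II the effect differed for 0 of 60 genes, and for 0% of all genes, by edgeR (0 of 60 also at an unadjusted p under 0.05, and 0 by DESeq2 and limma-voom). Between stages II and III 0 of 60 passed edgeR's test, as did 0% of all genes, while 42 were lower at an unadjusted p under 0.05 (4% of all genes; median -1.22, and -0.799 without anti-IL5 II replicate 2), 2 passed by DESeq2 and 0 by limma-voom. From stage III to IV the effect moved up for 2 of 60 genes and down for 0 (0.541% and 0.0969% of all genes), with a median of 0.99. The 2 were Aurkb (log2 2.38 ± 0.47, adjusted p = 0.0166) and Spc24 (log2 2.18 ± 0.39, adjusted p = 0.0142). Their stage IV levels were low: Spc24 read 0.51, 0.757 and 0.749 CPM under isotype and 1.67, 1.25 and 1.35 under anti-IL5, and Aurkb 1.96, 0.985 and 0.843 under isotype against 1.67, 4.62 and 3.41. Neither was called at stage IV itself (adjusted p = 0.218 and 0.112), and limma-voom called 0 of 60 for this difference. For Aurkb and Spc24 the adjusted p was 0.255 and 0.309 by limma-voom, 0.177 and 0.227 with an estimated correlation between same-numbered libraries, and 0.0913 and 0.0514 with stages III and IV fitted alone. Aurkb was also lost without isotype IV replicate 2 (0.0709), isotype IV replicate 3 (0.0569) or anti-IL5 IV replicate 2 (0.0842). The comparisons at stages I, III and IV share no library with each other, but the 3 differences that involve stage III share its 6 libraries.

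Other genes of the cycle, in lists written from textbook knowledge, were counted in the same fit. Of 68 other mitotic genes, 5 were higher at stage I and 0 lower (2.61% and 1.82% of all genes, median 0.48): Arhgef39 (log2 1.06 ± 0.18, adjusted p = 0.00167), the CDK phosphatase Cdkn3 (1.08), Fbxo5 (0.78), which encodes the anaphase-promoting complex inhibitor EMI1, Neil3 (1.04) and Mis18a (0.54). At stage III 10 of 68 were lower and 0 higher (5.05% and 1.32% of all genes, median -0.66), led by Fbxo5 (log2 -1.06 ± 0.20, adjusted p = 0.00291), Cenpi (-1.64), the condensin subunit Ncaph (-1.32) and Cenpw (-1.11). The effect moved down from stage I to III for 5 of 68 (0.363% of all genes), Fbxo5 (log2 -1.84 ± 0.28, adjusted p = 0.00277), Cdkn3 (-1.64), Ncaph (-2.04), Cenpi (-2.05) and Neil3 (-1.82).

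Genes that license and start DNA replication, which act before mitosis, were counted beside them. Of 17 helicase and origin genes 0 were called at stage I, against 2.61% of all genes called higher and 1.82% lower. With raw p under 0.05, 0 were higher and 0 lower, against 10.1% and 8.05% of all genes. The median of the 17 was -0.19, on the other side of 0 from the mitotic genes. For example Mcm3, a subunit of the replicative helicase, had log2 -0.24 ± 0.21 (adjusted p = 0.611). At stage III 11 of 17 were lower and 0 higher (5.05% and 1.32% of all genes, median -1.16), among them Mcm3 (log2 -1.51 ± 0.22, adjusted p = 0.00028), Mcm6 (-1.18), Mcm7 (-0.98) and Mcm2 (-1.32). The difference between the 2 lists at stage I was not tested.

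Of 23 G2/M transcription regulators, Lin54, a subunit of MuvB, was higher at stage I (log2 0.72 ± 0.20, adjusted p = 0.0423). Of all genes, 2.61% were called higher and 1.82% lower at stage I, and 1.32% and 5.05% at stage III. At stage III Mybl2, which encodes B-MYB (log2 -1.10 ± 0.27, adjusted p = 0.0185), E2f6 (-0.96) and E2f5 (-3.09) were lower. Foxm1, the factor that activates many of these genes late in the cycle, was not called at stage I (log2 0.76 ± 0.50, adjusted p = 0.452) or III (log2 -0.76 ± 0.52, 0.423). Of 9 tested genes that restrain entry, the antiproliferative Btg2 was higher at stage I (log2 1.01 ± 0.26, adjusted p = 0.0267), and the CDK1-inhibiting kinases Wee1 (log2 -1.39 ± 0.28, 0.00415) and Pkmyt1 (-0.86) were lower at stage III. Cdkn1a, the CDK inhibitor p21, was lower at stage IV (log2 -2.66 ± 0.56, adjusted p = 0.0226), where 1.05% of all genes were called in either direction. Of 13 cohesin genes Cdca5, which encodes sororin, was lower at stage III (log2 -1.0 ± 0.24, adjusted p = 0.017). Of 15 subunits of the anaphase-promoting complex 0 were called at any of the 4 stages by edgeR (1 higher and 1 lower with raw p under 0.05 at stage I, 1 and 0 at stage II, 0 and 2 at stage III, 0 and 0 at stage IV). Over all genes these raw shares were 10.1% and 8.05%, 6.25% and 7.3%, 7.69% and 14%, and 3.83% and 5.36% at stages I to IV. The sum of the 15 subunits lay between 1082 and 1757 CPM over all libraries.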

How the data were processed

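The authors' deposited files, 1 per library, hold raw counts of reads per gene. Per the submitters' processing notes STAR 2.6.1a, the genome build mm10 and DESeq2 were used, while how reads were assigned to genes is not given in the sources used here. Per the labels' protocols, cDNA was made with SMART-Seq v4 (17 cycles, no strand mark, no molecular identifiers). Lines naming no gene were left out (no feature 12.7 to 22.1%, ambiguous 1.86 to 2.39%).

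All 22 libraries were fitted with 8 group means in edgeR 4.0.16 (R 4.3.3; TMM scaling, filterByExpr, robust quasi-likelihood test, Benjamini-Hochberg over 12387 genes, threshold 0.05), which was tested on simulated data. Values after ± are standard errors of log2 fold changes. DESeq2 1.42.0, limma 3.58.1 and the other alternatives are in the closing section. Intervals cover counting error only. Members, lists and tests were chosen with earlier results of these data known. Named are a panel of 12 members, members called for the antibody, the 6 largest called falls and rises of a step, each role's member of smallest p and up to 4 called genes of each other list. A few other members are named for contrast, after their values were seen. Same-numbered libraries deviated together for isotype stages III and IV (correlations 0.124 to 0.208) and I and III (0.12 to 0.2), from the data and not the labels. Blocking on the number changed no count for stage IV against III under isotype, where nearly all members were called already. For the effect at stage III minus I, blocking raised the count, as given in the closing section. Positions are from GENCODE M21 (GRCm38).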

Additional observations from a re-analysis of the deposited data

Results flagged for a closer look

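The difference of the antibody effect between stages passed its own test for 7 results. Between stages I and III the log2 effect moved down by -1.53 for Spc24, -1.63 for Racgap1, -1.67 for Spc25, -1.46 for Cdca8 and -1.40 for Ndc80. Between stages III and IV it moved up by 2.38 for Aurkb and 2.18 for Spc24, where the stage IV groups held few counts. Neither of these last 2 passed by limma-voom (adjusted p 0.255 for Aurkb and 0.309 for Spc24), with an estimated correlation (adjusted p 0.177 and 0.227) or with the 4 groups fitted alone (0.0913 and 0.0514). Groups of 2 or 3 libraries were too small for the test of single outlying libraries.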

How the results depend on the processing

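Counts below are of the 60 mitotic genes, and the cause of each change was not tested. For the antibody at stage I, 6 became 23 by limma-voom, 23 with duplicateCorrelation, 10 with the replicate block, 3 with RLE size factors and 41 with the groups compared only. The share of all genes tested that was called higher went from 2.61% to 2.74%, 2.78%, 3.47%, 2.28% and 4.73% in these fits. At stage II, 0 became 1 by DESeq2, 1 by limma-voom and 1 with duplicateCorrelation, and at stage IV 2 by DESeq2. Called higher at stage II were 1.69%, 0.388% and 0.42% of all genes in these fits, and at stage IV 0.525%. At stage III, 6 became 14 by DESeq2, 10 by limma-voom, 10 with duplicateCorrelation, 10 with the replicate block and 3 with the groups compared only. The share of all genes called lower went from 5.05% to 7.59%, 4.36%, 4.28%, 6.13% and 2.83% in the same order. For stage II against I under isotype, 8 became 18 by limma-voom, 25 with duplicateCorrelation, 5 with RLE size factors and 3 with library totals alone. Of all genes, 7.39% were called higher there in the main fit and 6.41%, 7.77%, 6.26% and 5.23% in these. For the same step under anti-IL5, 1 became 9, 10 with duplicateCorrelation, 2 with the replicate block, 2 without the filter and 4 with the groups compared only. All genes called higher made up 7.27% in the main fit, 6.89% by limma-voom and 8.14% with duplicateCorrelation. They made up 7.69% with the replicate block, 5.76% without the filter and 4.46% with the groups compared only. For the effect at stage III minus I, 5 became 20 by DESeq2, 22 by limma-voom, 31 with duplicateCorrelation, 13 with the replicate block and 32 with the groups compared only. The share of all genes called lower there went from 0.363% to 1.78%, 0.791%, 1.53%, 0.718% and 1.59% in the same order. For stage III minus II DESeq2 called 2, and of all genes 0.0646% lower and 0.00807% higher. For stage IV minus III, 2 became 5 by DESeq2 and 0 by limma-voom, with duplicateCorrelation or with the groups compared only. The share of all genes called higher there went from 0.541% to 1.61%, 0.105%, 0.258% and 0.0701% in the same order.

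Leaving out 1 library gave 1 to 2 calls for the antibody at stage I, 0 at stage II, 1 to 11 at stage III and 0 to 2 at stage IV (2 without isotype IV replicate 1). It gave 1 to 5, 34 to 55, 57 to 58 and 58 to 59 for stages II against I, III against II, IV against III and IV against I under isotype. Under anti-IL5 it gave 0 to 2, 56 to 59, 53 to 58 and 60. For the effect at stage III minus I it gave 1 to 8, and at stage IV minus III 1 to 4 (1 without isotype IV replicate 2 or 3, 4 without isotype IV replicate 1). Where a group was left with 1 library, that library was assumed to vary like the others. The median of the 60 ran from -1.862 to -1.249 for stage III against II under isotype and from -3.182 to -2.393 under anti-IL5. It ran from 0.135 to 0.821 for the antibody at stage II, from 0.092 to 0.545 at stage IV and from 0.3 to 0.826 for stage II against I under isotype. It ran from -6.045 to -5.459 for stage IV against I under isotype, and from 0.084 to 0.707 for stage II against I under anti-IL5. For the effect at stage II minus I it ran from -0.570 to 0.101, turning positive without isotype I replicate 1 (0.004), isotype II replicate 2 (0.101) or anti-IL5 II replicate 1 (0.077).

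With library totals alone the median for stage IV against I was -6.03 under isotype and -6.347 under anti-IL5. With that scaling the median of all genes there was -0.462 under isotype and -0.476 under anti-IL5. The all-gene split of stage III against II under isotype went from 2355 higher and 2236 lower to 1735 and 2945. Mean sums became 9253.5 CPM (isotype I), 14304 (anti-IL5 I) and 878.83 (anti-IL5 IV). Without Hmgb2 they were 598.02 (isotype IV), 10830 (anti-IL5 I), 2357.5 (anti-IL5 III) and 639.09 (anti-IL5 IV).

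The labels do not say that a number marks 1 animal. Deviations of same-numbered libraries of 1 antibody correlated at 0.0229 to 0.208 over 30 pairs, 16 of them over 0.1. Across antibodies at stages I, III and IV none of the 9 was over 0.1. At stage II, with 2 libraries per group, the 2 pairs must share the same value (0.338) and are a single observation. All 3 pairs were over 0.1 between isotype stages III and IV, where the replicate block gave 58 calls as without it, and between isotype stages I and III (0.12 to 0.2). With nearly all of the genes called already, the 58 could hardly show an effect of the block. That block joined libraries of the same number across both antibodies. Isotype stages I and III both enter the effect at stage III minus I, where the block raised the count of calls. In no other compared pair of 3-library groups was every pair over 0.1. The main fit was left without the block, and the blocked fits stand as alternatives. As a hint from the data, 21 of 22 libraries correlated best with their own number.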
